A study of Bos taurus with 10 samples.

Results

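The metabolic microRNAs (miRNAs) miR-33, miR-122 and miR-378 were examined in small RNA libraries of bull sperm. They were taken by name, as every row called miR-33a, miR-33b, miR-122 or miR-378 with or without a further letter or arm suffix, which gave 7 of the 978 miRNAs listed in each of the 2 deposited miRNA tables. Spelled as in the tables, the 7 names are bta-miR-33a, bta-miR-33b, bta-miR-122, bta-miR-378, bta-miR-378b, bta-miR-378c and bta-miR-378d, and the prefix is dropped below. They were chosen by name and also selected on their mean level, which was uneven between the tables for some. These levels are therefore given as a description, with no test.

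The 10 samples were sperm of cattle (Bos taurus) with no treatment, and the fertility of the bull was rated high for 3 and low for 3 of them, while the fertility of associated daughters was high for 3 and low for 3. Of these, 2 samples entered both comparisons: both had high bull fertility, and 1 of them had high and the other low daughter fertility. The remaining high bull fertility sample, the 3 low bull fertility samples and the other 4 daughter fertility samples carried 1 label each. Nothing in the labels ties samples to separate bulls, so p-values measure the spread between these samples alone, which may be technical. Breed, age and semen collection were not stated either.

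A miRNA is a short RNA that guides a silencing complex to messenger RNAs, chiefly through its seed near the 5′ end. In mammals miR-33a and miR-33b lie in introns of the genes for the sterol regulators SREBF2 and SREBF1 and repress the cholesterol exporter ABCA1, while miR-378 lies in the gene for the mitochondrial coactivator PPARGC1B. Liver is the known site of miR-122, where it dominates the miRNA pool and acts on cholesterol synthesis. By the RefSeq annotation of the cattle assembly ARS-UCD2.0, MIR33A lay within SREBF2, MIR33B within SREBF1 and MIR378-1 within PPARGC1B. A further copy, MIR378-2, lay within CALCR, MIR378C within ZNF521 and MIR378D within MSI2, and no containing gene was listed for MIR378B or MIR122.

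Each value below is 1 number per comparison, since the tables hold no value per library. The level is the authors' mean normalized count, that is, counts divided by a size factor per library and averaged over the 6 libraries of a comparison. Fold changes are log2 values with their standard errors (SE) by the authors, written here as high over low fertility. This direction had to be inferred from the values, with more certainty for the bull than for the daughter comparison, so each daughter fertility direction would turn if that inference is wrong. The 2 tables were normalized separately, and levels set across them are on scales that may differ.

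Depth, as far as the tsRNA group values show it, moved with daughter fertility. These are scales of the tsRNA values, and those of the miRNA counts may differ. Read from the tsRNA group values, 1 normalized count stood for 0.618 to 0.785 reads in the high and 0.903 to 2.21 reads in the low daughter fertility libraries, ranges that did not overlap, and the part of depth in the values below was not tested. In the bull comparison these ranges were 0.618 to 1.39 (high) and 0.945 to 1.89 (low), and they overlapped. The total reads per library are unknown here, so no counting intervals are given. As a check of the tissue, the male germ cell miRNA miR-34c ranked 6 of 978 by mean in the bull fertility comparison. In the daughter fertility comparison it ranked 5, and its means were 1914 and 2442 normalized counts in the authors' deposited tables. Of the other male germ cell names, miR-449a ranked 25 and 27 and miR-34b 29 and 28. Far lower, miR-449c ranked 678 and 734 and miR-449b 905 and 874, so the list was uneven. Sperm libraries can hold other cells, and in such bulk samples fewer cells of a type and less RNA per cell cannot be told apart.

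The 7 metabolic miRNAs were a small fraction of the sperm pool. Together they held 0.208% of the summed means in the bull fertility table and 0.280% in the daughter fertility table. In the bull fertility comparison the order was miR-33a at 135 normalized counts, miR-33b at 37.7, miR-122 at 37.0, miR-378b at 14.9, miR-378d at 6.29, miR-378c at 0.0788 and miR-378 at 0 in the authors' deposited table. The order among daughter fertility libraries was miR-33b at 214, miR-33a at 98.9, miR-122 at 56.2, miR-378b at 16.7, miR-378d at 8.57, miR-378 at 7.04 and miR-378c at 1.66 in the authors' deposited table. The median miRNA stood at 46.0 and 57.8. Thus miR-33a lay above that median in both tables, miR-33b in the daughter fertility table alone, and miR-122 and the 4 miR-378 names below it in both. No spread over libraries comes with these means, so neighbours in either order, such as miR-33b and miR-122 for bull fertility, cannot be said to differ.

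**Figure D1:**
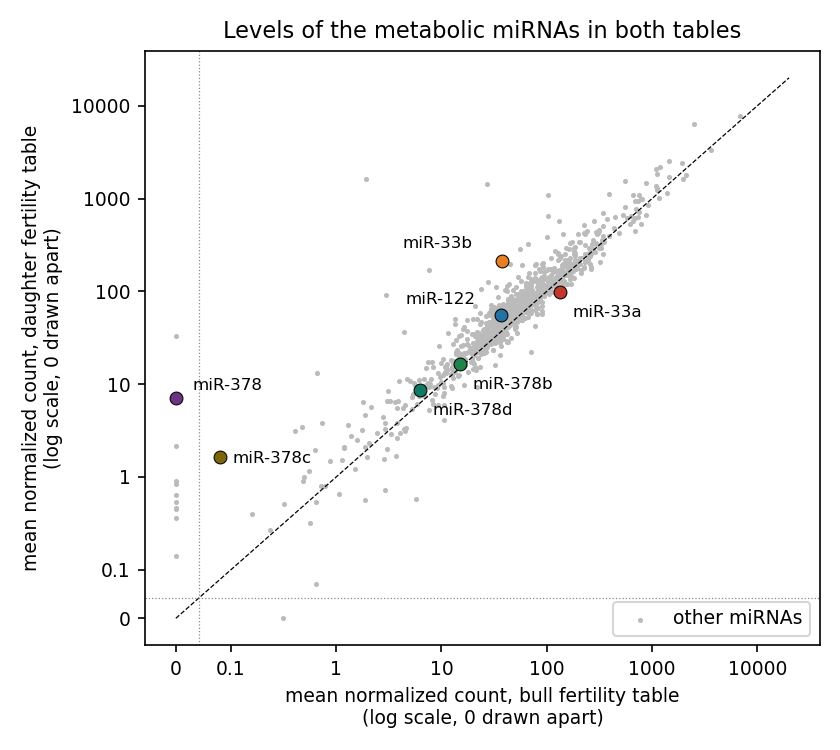
Mean normalized count of each miRNA in the bull fertility table (x axis) and the daughter fertility table (y axis), both on log scales with 0 drawn apart beyond the dotted lines; the dashed line marks equal values. Coloured points are the 7 metabolic miRNAs and grey points the other listed miRNAs: miR-33b (37.7 and 214) and miR-378 (0 and 7.04) lie above the line, while miR-33a (135 and 98.9) lies below it.

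The miR-33 pair differed in level between the tables in opposite directions. Such unevenness entered the choice of the names, so the ratios and places below are a description and no evidence. The mean of miR-33b was 5.66 times as high in the daughter as in the bull fertility table, and that of miR-33a 0.735 times. Over the 858 miRNAs with a mean of at least 10 in both tables, the median of this ratio was 1.19 and the central 80% ran from 0.878 to 1.85, and miR-33b took place 4 from the top. The 3 miRNAs above it were miR-2285aj-5p at 53.2, miR-2284t-3p at 10.7 and miR-2886 at 6.29. They were listed as lower with high daughter fertility, the opposite sign to miR-33b. Their log2 fold changes were -5.98, -4.00 and -3.31 in the authors' deposited table. Like miR-33b, these 3 have a statistic but no deposited p for daughter fertility, a form described below. For miR-122 the ratio was 1.52 and for miR-378b 1.12, both inside that central range, while that of miR-33a lay below it. With means under 10 and so not among the 858, miR-378d had a ratio of 1.36 and miR-378c one of 21.0, the latter against 1 read's worth of counts in the bull fertility table.

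No metabolic miRNA passed the threshold, a Benjamini-Hochberg adjusted p under 0.05 in the authors' DESeq2 Wald test over all miRNAs, in either comparison. In the bull fertility comparison 0 of the 6 names with a p passed, where 0 of 964 miRNAs did (0%), and 0 of the 6 had an unadjusted p under 0.05, where 45 of 964 did (4.67%). For daughter fertility 0 of 5 passed, where 2 of 951 miRNAs did (0.21%), and 0 of the 5 had an unadjusted p under 0.05, where 58 of 951 did (6.1%). The other 2 names of the daughter fertility table, miR-33b and miR-378, carry a Wald statistic but no p. In the high bull group 3 of 6 measured names were listed above and 3 below the low group, with a median log2 fold change of 0.16, where 50.6% of all 967 measured miRNAs were higher and the median was 0.01. With high daughter fertility 5 of 7 were higher, with a median of 0.77, where 45.3% of all 977 measured miRNAs were higher and the median was -0.11. The comparisons share 2 libraries, so these counts are not independent of each other.

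**Figure D2:**
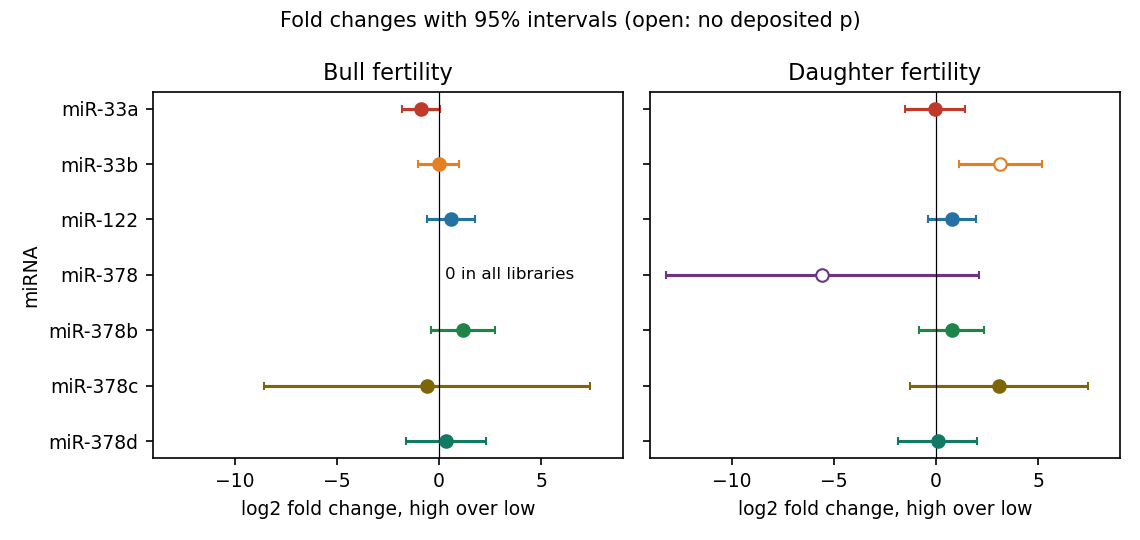
Log2 fold change, high over low fertility (x axis), of each metabolic miRNA (y axis) for bull fertility (left) and daughter fertility (right), with 95% intervals from the authors' standard errors; open points have no deposited p. Intervals include 0 for every name except miR-33b in the daughter fertility comparison, at 3.16 with an interval from 1.11 to 5.20, and miR-378 has no bull fertility value because its mean is 0.

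Within the miR-33 family, the cholesterol-linked pair, miR-33a had its lower listed level in the high bull group, without passing the threshold. Its log2 fold change was -0.88 (SE 0.48) in the authors' deposited table, with a 95% interval from -1.83 to 0.07, an unadjusted p of 0.0687 and an adjusted p of 0.996. This was the smallest p of the metabolic miRNAs for bull fertility, at place 66 of 964. If the fold change is read as the ratio of the group means, the deposited mean and fold change imply 94.8 normalized counts with high and 174 with low bull fertility. For daughter fertility miR-33a stood at -0.07 (SE 0.75, adjusted p 0.980) in the authors' deposited table, with implied means of 96.6 and 101. Its daughter fertility interval, from -1.53 to 1.40, leaves room for more than a doubling in either direction.

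The values of the other member, miR-33b, were unlike in the 2 comparisons, a difference that was not tested. For bull fertility its log2 fold change was -0.01 (SE 0.52, adjusted p 0.996) in the authors' deposited table, with implied means of 37.6 and 37.8 normalized counts in the high and low groups. For daughter fertility it stood at 3.16 (SE 1.04) in the authors' deposited table, that is 8.92-fold higher with high daughter fertility, with implied means of 384 and 43.1. The implied level with low daughter fertility was thus near those of both bull fertility groups, and the high daughter fertility value stood apart from the other 3. No p is given for this difference. In DESeq2 a p is set to missing where the count of 1 library is extreme for its group. With a mean above 0 and a statistic but no p, miR-33b has the form that this rule leaves. No source at hand states the reason, and without values per library it was not tested. The fold change, interval and implied means of miR-33b for daughter fertility may thus rest on 1 extreme library.

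**Figure D3:**
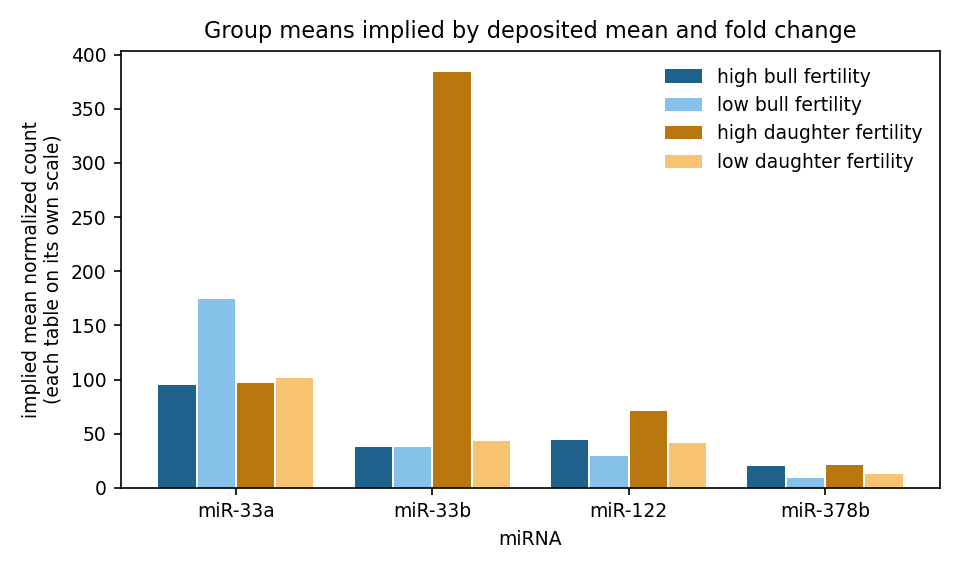
Mean normalized count per group (y axis, linear) implied by the deposited mean and fold change for the 4 metabolic miRNAs with a mean of at least 10 in both tables (x axis); bars are single computed values with no error, and each table is on its own scale. The bar of miR-33b with high daughter fertility, at 384, stands above its other 3 bars, at 37.6 to 43.1, and miR-33a is highest with low bull fertility, at 174.

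Most miR-33b counts of the daughter fertility table came from libraries outside the bull fertility comparison. Over its 6 libraries the daughter fertility total was 1282 normalized counts, against 226 over the 6 bull fertility libraries. The 2 shared libraries are among the 3 with high bull fertility, whose implied total was 113, or 128 on the daughter fertility scale after multiplying by 1.137. That factor is the ratio of the means of miR-2285ab, and of miR-2285dc, between the tables, as read from 1 shared library and assumed for the other. With all of that total granted to the shared libraries, an estimated 90.0% of the miR-33b total lay in the 4 unshared daughter fertility libraries, or 79.9% if the counts of all 6 bull fertility libraries are granted to the shared ones. Of the implied 1153 normalized counts with high daughter fertility, the first estimate leaves about 1024 to the 2 unshared high daughter fertility libraries. These figures rest on fitted fold changes and an assumed scale and are no bounds. How they divide between those 2 libraries cannot be read from the tables.

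The listed balance of the pair turned with the daughter fertility value of miR-33b, which has no p and may rest on 1 extreme library. Counts are not scaled by length, but mature miRNAs are of nearly equal length. Over all 6 libraries miR-33a was 3.57 times as abundant as miR-33b in the bull fertility table and 0.463 times in the daughter fertility table. By implied group means the ratio of miR-33a to miR-33b was 2.52 with high and 4.61 with low bull fertility, 2.35 with low daughter fertility and 0.251 with high daughter fertility. Since miR-33a and miR-33b are close in sequence in mammals, and nothing at hand says how reads fitting both were counted, the split between them is uncertain.

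Missing p-values had a direction of their own in the daughter fertility table. Of 977 miRNAs with a statistic, 26 had no p (2.66%), against 3 of 967 (0.31%) for bull fertility. Of these 26, 24 were lower with high daughter fertility, and miR-33b and miR-2285cn were the 2 that were higher. A p computed here from the Wald statistic of miR-33b would be 0.0025. After Benjamini-Hochberg adjustment over all 977 statistics it would be 0.156 and would not pass either. The authors' test gave no p for this row, so the computed p is not to be relied on. At 1.04 its SE was above the median of 0.67 over miRNAs with a mean of at least 10.

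**Figure D4:**
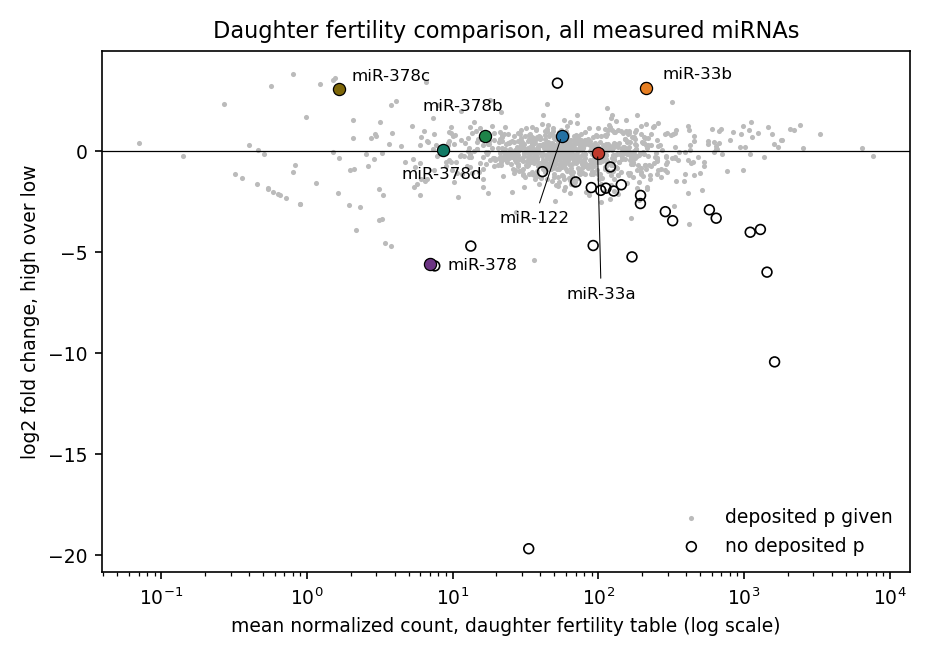
Log2 fold change, high over low daughter fertility (y axis), against mean normalized count (x axis, log scale) for the 977 measured miRNAs; open circles are the 26 with a statistic but no deposited p, and coloured points are the 7 metabolic miRNAs. Of the miRNAs without a p, 24 lie below 0, miR-378 among them at -5.57, and miR-33b at 3.16 is 1 of the 2 above it.

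The liver miRNA miR-122 was detected at a modest level and was listed as higher with high fertility in both comparisons, without passing the threshold in either. The authors' deposited table gave a bull log2 fold change of 0.59 (SE 0.60, adjusted p 0.996), with a 95% interval from -0.59 to 1.76. The daughter fertility value was 0.78 (SE 0.59, adjusted p 0.816) in the authors' deposited table, a 1.72-fold difference with an interval from -0.37 to 1.94. Implied means for the high and low group were 44.5 and 29.6 in the bull comparison, and 71.2 and 41.3 in the daughter comparison. By mean it ranked 577 and 503 of 978.

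Other liver-enriched miRNAs gave no common direction. Of 4 measured names, the high group had the larger level for 2 in the bull and 3 in the daughter comparison (median log2 values 0.12 and 0.25). Of these 4, 0 passed the threshold or an unadjusted p under 0.05. Over all miRNAs with a p, 0% and 0.21% passed the threshold, and 4.67% and 6.1% had an unadjusted p under 0.05. At such shares 0 of 4 says little. The most abundant, miR-483, was listed in the authors' deposited tables at -0.18 (SE 0.45) for bull and 0.28 (SE 0.61) for daughter fertility. There miR-192 stood at 0.43 (SE 0.65) and 0.70 (SE 0.61), and miR-885 at -0.57 (SE 0.52) and 0.23 (SE 0.65), by the authors' deposited tables. The rarest, miR-194, had values of 0.83 (SE 1.87) and -1.59 (SE 1.15) by the authors' deposited tables. Leukocyte, red blood cell and skeletal muscle miRNAs summed to 0.274%, 0.239% and 0.156% of the bull fertility means and 0.260%, 0.215% and 0.125% of the daughter fertility means. Medians of the log2 fold changes were -0.38 and -0.50 for 5 leukocyte names, 0.18 and 0.12 for 3 red blood cell names and 0.73 and -1.24 for 4 muscle names. Values were negative for all 5 leukocyte names in the bull comparison and for 4 of 5 in the daughter comparison. Of the leukocyte names 1 had an unadjusted p under 0.05, miR-146a for daughter fertility, where 6.1% of all miRNAs with a p did. It was listed at -2.47 (SE 0.84, adjusted p 0.340) in the authors' deposited table. Among 5 male germ cell names the medians were -0.31 and 0.54, with positive values for 2 in the bull and all 5 in the daughter comparison. Over all measured miRNAs 50.6% and 45.3% were positive, and lists this short can be one-sided without meaning. The number of these 17 names that passed the threshold was 0, and the part of other cells in the values of the metabolic miRNAs was not tested.

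The miR-378 family, tied to mitochondrial metabolism, was uneven among its own members. In the authors' deposited tables the name without a letter had a mean of 0 in the bull fertility comparison, so no read was counted for it in any of those 6 libraries, the 2 shared ones included. Its mean of 7.04 in the daughter fertility comparison came to 42.2 normalized counts over 6 libraries, which is 78 reads at 0.541 normalized counts per read, the step of 1 library. The steps were whole within a tolerance of 1e-04 for 9 miRNAs, with 4 reads of miR-2285n, 24 of miR-2285f and 369 of miR-2284z among them. All 9 were listed as lower with high daughter fertility, and 8 of the 9 had a mean of 0 in the bull fertility table. The total of miR-378 is thus what 78 reads would give in a single library that was not shared between the comparisons and that carried the deposited sign taken here as low daughter fertility.

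That library was deep, at 1.85 reads per normalized count. By the tsRNA values the unshared low daughter fertility libraries stood at 2.21 and 0.903 and the unshared high ones at 0.785 and 0.763. The deposited log2 fold change of miR-378 came to -5.57 (SE 3.91, no p) as high over low in the authors' deposited table. It compares a library with reads against a group at 0 and is no bound on the size of a difference. Altogether 11 miRNAs were at 0 in the bull fertility table and above 0 in the daughter fertility table, and miR-378 was second among them by mean after miR-2284z at 33.3 normalized counts.

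The lettered names of the family had reads in both tables. The most abundant, miR-378b, was listed as higher with high fertility in both comparisons and passed in neither. The authors' deposited tables gave it 1.17 (SE 0.79, adjusted p 0.996) for bull and 0.77 (SE 0.82, adjusted p 0.911) for daughter fertility. Implied means of miR-378b were 20.6 and 9.16 for high and low bull fertility and 21.0 and 12.3 for high and low daughter fertility. For less abundant miR-378d the authors' deposited tables listed 0.33 (SE 1.00, adjusted p 0.996) and 0.07 (SE 1.00, adjusted p 0.980), with intervals from -1.63 to 2.30 and from -1.88 to 2.02. The rarest, miR-378c, summed to 0.473 normalized counts in the bull fertility table, which fits 1 read in a low bull fertility library, and its daughter fertility value was 3.10 (SE 2.23, adjusted p 0.805) in the authors' deposited table. At 9.95 normalized counts over 6 libraries this value rests on few reads. Its sign was opposite to that of miR-378, and the difference between them was not tested. Family names of near-identical sequence can compete for the same reads, and no source at hand gives how these were assigned, so the split within the family is uncertain.

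In the plane of both log2 fold changes, the nearest miRNAs with a mean of at least 10 in both tables were found for the 5 names with a p in both. Likeness here is a distance in log2 units over 2 comparisons that share libraries, and is a description. Nearest to miR-33a were miR-184 at a distance of 0.0078 and miR-2409 at 0.045. For miR-122 they were miR-28 at 0.064 and miR-2285a at 0.086, and for miR-378b miR-2285cz at 0.055 and miR-1197 at 0.095. Closest to miR-378d were miR-2285ao at 0.017 and miR-11989 at 0.052. The low-count miR-378c had no close neighbour, the nearest being miR-33b at 0.571 and miR-495 at 0.777.

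Other miRNAs with a reported role in cholesterol and lipoprotein handling did not pass the threshold either. Of 18 measured names 7 had a positive and 11 a negative value in the bull comparison, and again 7 and 11 in the daughter comparison. Among them miR-223 is also a leukocyte name and miR-144 a red blood cell name above. Their medians were -0.21 and -0.25, beside 0.01 and -0.11 over all measured miRNAs. The number past the threshold was 0 in both, where 0% and 0.21% of all miRNAs with a p passed. An unadjusted p under 0.05 was also found for 0 in both, where 4.67% and 6.1% of all miRNAs with a p had one. A list this short can show 0 at such shares. For daughter fertility miR-27b had no p and could not be counted. For the most abundant, miR-10b, the authors' deposited tables gave 0.13 (SE 0.54) and 0.16 (SE 0.64). For miR-128, which targets ABCA1 as miR-33 does, the authors' deposited tables listed -0.29 (SE 0.51) and 0.64 (SE 0.56). Like miR-33b, miR-27b had no p for daughter fertility, but with the opposite sign, at -5.22 (SE 1.92), and a mean of 7.54 in the bull and of 170 in the daughter comparison by the authors' deposited tables.

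Names linked to brown fat and muscle energy use, the setting in which miR-378 is best known, gave 0 calls as well. Over all miRNAs with a p, 0% were called for bull and 0.21% for daughter fertility. Of 13 measured names 11 had a positive and 2 a negative value in the bull comparison, and 8 and 5 in the daughter comparison. Of the 11 with a mean of at least 10, 9 and 8 were positive. The names miR-133a, miR-133b and miR-206 are also among the skeletal muscle names above, so the lists are not separate. Over all measured miRNAs the positive share was 50.6% and 45.3%. The medians of the 13 were 0.42 and 0.37, beside 0.01 and -0.11 over all. In each comparison 1 of the 13 had an unadjusted p under 0.05, where 4.67% and 6.1% of all miRNAs with a p did: miR-365-3p, which the authors' deposited tables list at 2.02 (SE 0.69, adjusted p 0.794) and 1.80 (SE 0.72, adjusted p 0.506). The other strand of its hairpin, miR-365-5p, has the values 0.04 (SE 0.45) for bull and -1.56 (SE 0.81) for daughter fertility by the authors' deposited tables. For miR-208b, a miRNA of a muscle myosin gene, the authors' deposited tables gave 0.35 (SE 0.48) and 0.64 (SE 0.62). For miR-499, of another myosin gene, the authors' deposited tables gave 0.92 (SE 0.49) and -0.08 (SE 0.73).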

How the data were processed

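Per the labels' protocols, a miRNeasy kit served for the RNA of the sperm and a NEBNext kit for the small RNA libraries. The submitters' processing notes name Trimmomatic 0.39 and DESeq2 1.34.0 and give no roles. Aligner, build, annotation and read counting: not given in the sources used here.

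The 2 miRNA tables hold, per the file headers, a signal deposited by the authors (counts divided by size factors and averaged over the 6 samples of a comparison), a log2 fold change and its standard error, a Wald score and p-values. Header names sit 1 column to the left of their values, and columns were read by position: the deposited score equals fold change over standard error, and the deposited adjusted p equals a Benjamini-Hochberg adjustment of every deposited p (largest difference 5.98e-14). The tsRNA table's group signal, deposited by the authors, was used to read the depth of libraries.

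No numerator is named for the miRNA fold changes. From table to table the mean of miR-2285ab changed 1.137 times and that of miR-2285dc by the same factor, as if a shared library held their reads. Shared libraries are all of high bull fertility, and these miRNAs have negative deposited bull values (-1.27 and -3.07). The sign was therefore read as low over high there, and the convention was carried over to daughter fertility. The library of miR-378, at 1.85 reads per normalized count and with a positive deposited sign, was nearer in depth to the deeper unshared low daughter fertility library than to the high ones.

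Computed here were signs turned to high over low, 95% intervals (1 SE times the normal quantile), ranks, shares, implied group means, whole-read steps and list counts, with Python 3.11.15, pandas 2.3.3, SciPy 1.17.1, NumPy 2.4.6 and matplotlib 3.10.9. Implied means assume that the fold change is the ratio of group means. Routines were tested on simulated data. The simulated counts held no extreme library, so implied means of a row with such a library were not checked. Count tests were planned in case per-sample values were at hand. Without them the authors' test was used, and no library could be left out. Members, lists and the rule for named miRNAs (all members, list members by abundance and the 2 nearest miRNAs by fold changes) were chosen with earlier results of these data known. Other list members named in the text (miR-27b, miR-365, miR-146a, miR-128, miR-208b and miR-499) were chosen after their values were seen.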

Additional observations from a re-analysis of the deposited data

How the results depend on the processing

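The 2 counts of metabolic miRNAs past the threshold stayed at 0 under an adjusted p under 0.1, adjustment over miRNAs with a mean of at least 10, p-values from every Wald statistic, and an unadjusted deposited p under 0.05. The p computed from the Wald statistic of miR-33b for daughter fertility, which has no deposited p, is 0.0025 unadjusted and 0.156 adjusted. By that value, which the authors' test did not give and which is not to be relied on, 1 name would be under 0.05 before adjustment. Over all miRNAs an unadjusted p under 0.05 gave 45 for bull and 58 for daughter fertility. Keeping only members with a mean of at least 10 left 3 higher with high daughter fertility in place of 5, since fewer were counted. Centring on the median fold change kept the direction of 12 of 13 member values, and miR-33a for daughter fertility turned from -0.067 to 0.020. The ratio of miR-378b between the tables, 1.12, turned to 0.940 when divided by the median ratio and to 0.864 as a ratio of shares, while the other 10 rescaled ratios kept their direction within 1.5 times. No paired analysis was possible because the tables hold 1 value per comparison and no value per sample. For the same reason no replicate could be left out and no other count test run. Low means limit miR-378, miR-378c and miR-378d most.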

Other observations

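Of 12 measured names linked to insulin and glucose, 4 had a positive log2 fold change (high over low) in the bull and 7 in the daughter comparison. Over all measured miRNAs 50.6% and 45.3% were positive. The medians of the 12 were -0.42 and 0.23, beside 0.01 and -0.11 over all. The number past the threshold was 0 in both, where 0% and 0.21% of all miRNAs with a p passed. The most abundant miRNA of both tables, miR-375, which acts in pancreatic beta cells, is listed at 0.29 (SE 0.43) for bull and -0.21 (SE 0.55) for daughter fertility by the authors' deposited tables. For miR-204 the authors' deposited tables give -1.06 (SE 0.63) and -1.45 (SE 0.95), with means of 101 and 386 normalized counts. An unadjusted p under 0.05 was found for 1 of the 12 in the bull and 0 in the daughter comparison, where 4.67% and 6.1% of all miRNAs with a p had one. The name was miR-29c for bull fertility, named after its value was seen, at -2.44 (SE 1.10, adjusted p 0.986) in the authors' deposited table.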
